A study of Mus musculus with 12 samples.

Results

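The 10 genes described here encode the BBSome and the chaperonin-like proteins that help to build it. They were chosen by gene symbol, as the entries for Bbs1, Bbs2, Bbs4, Bbs5, Bbs7, Ttc8, Bbs9, Bbip1, Bbs10 and Bbs12 in the count tables of sperm and of testes. All 10 were found in the sperm table, among 51826 entries, and in the testis table, among 23502 entries. Poly(A) RNA was sequenced from 12 libraries of mice in 4 groups of 3. Sperm from the cauda epididymis at P56 (D56 in the labels, day 56) came from WT and from XAP5L KO mice, which lack Xap5l in every cell and belong to a line made with CRISPR-Cas9. Testes at P16 (D16 in the labels, day 16) came from WT and from XAP5 cKO mice, in which a floxed Xap5 allele is deleted in germ cells by a Cre expressed from the Stra8 locus, so that Sertoli, Leydig and other somatic cells keep the gene. The floxed Xap5 and the Xap5l knockout alleles were made on the C57BL/6J background. The study asked how loss of each nuclear protein alters ciliary gene transcripts.

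The BBSome is a coat-like protein complex that links membrane proteins to the intraflagellar transport trains of cilia and carries them across the ciliary base. Its propeller subunits BBS2, BBS7 and BBS9 assemble first, with help from the chaperonin-like proteins BBS10, BBS12 and MKKS and the cytosolic chaperonin CCT, and the other subunits join later. Mutations in these genes cause Bardet-Biedl syndrome, a ciliopathy, and male mice that lack several of the subunits form sperm without flagella.

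Promoter sequences are shown for 3 members. Bbs1 and Bbs7 were the members called lower in the testis comparison, and Bbs4 was the member whose testis estimate lay nearest to 0. Windows from 250 bases before to 50 bases after the RefSeq transcription start (build GRCm38.p6) were given for all 10 members. The windows were searched on both strands for GGGCGGGG, for GTTGCC, which is part of the X-box bound by RFX factors, and for GTTGCCNNG, whose every match contains a GTTGCC match. Capitals mark the matches, and each sequence reads 5′ to 3′ along the gene, here always the minus strand. The window of Bbs1 is chr19:4906578-4906877, that of Bbs7 is chr3:36613340-36613639 and that of Bbs4 is chr9:59353459-59353758.
Bbs1: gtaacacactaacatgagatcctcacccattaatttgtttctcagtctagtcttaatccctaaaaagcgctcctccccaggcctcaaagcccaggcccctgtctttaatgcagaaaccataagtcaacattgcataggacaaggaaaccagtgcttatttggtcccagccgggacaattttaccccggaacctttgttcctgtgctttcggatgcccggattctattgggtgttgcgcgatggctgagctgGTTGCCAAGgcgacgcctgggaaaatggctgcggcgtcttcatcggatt
Bbs7: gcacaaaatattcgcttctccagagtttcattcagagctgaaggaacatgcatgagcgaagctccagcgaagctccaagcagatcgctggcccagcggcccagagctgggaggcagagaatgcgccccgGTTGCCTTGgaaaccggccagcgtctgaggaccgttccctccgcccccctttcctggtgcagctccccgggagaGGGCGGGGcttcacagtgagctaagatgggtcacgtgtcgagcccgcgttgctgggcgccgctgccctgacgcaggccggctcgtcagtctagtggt
Bbs4: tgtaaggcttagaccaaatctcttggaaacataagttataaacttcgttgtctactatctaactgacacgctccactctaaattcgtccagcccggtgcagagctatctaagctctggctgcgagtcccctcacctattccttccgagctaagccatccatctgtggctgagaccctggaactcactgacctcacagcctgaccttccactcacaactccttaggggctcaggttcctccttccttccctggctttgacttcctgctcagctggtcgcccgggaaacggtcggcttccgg

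The GTTGCCNNG motif was found in 2 of the 10 member windows, those of Bbs1 and Bbs7, and in 5.01% of all 32817 promoter windows. In Bbs1 it covered bases 1 to 9 after the start, and in Bbs7 it lay from -121 to -113. The shorter GTTGCC occurred in 3 member windows, including that of Bbs5, and in 12.5% of all windows. The Bbs5 match, at bases 42 to 47, lay too near the end of the window for GTTGCCNNG to be found there. The GC-rich GGGCGGGG occurred in 4 member windows, those of Bbs7, Ttc8, Bbs9 and Bbip1, and in 17.6% of all windows. Bbip1 held 4 separate matches, while the windows of Bbs2, Bbs4, Bbs10 and Bbs12 held none of the motifs. These matches are letter matches only and do not show binding. The motifs were chosen with earlier results of these data known, and a link between the matches and the calls was not tested. Only exact matches were sought, so a string that differs in a letter, such as gtcgcc in the Bbs4 window, was not counted.

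**Figure D1:**
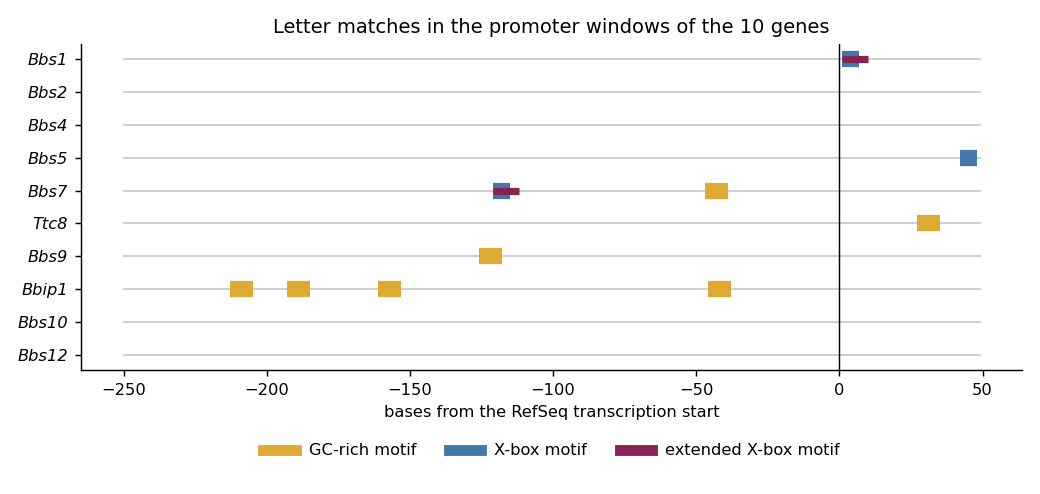
Positions of the motif matches in the promoter windows of the 10 genes, with the distance in bases from the RefSeq transcription start on the x axis and 1 gene per line. The gold blocks are GGGCGGGG matches, the blue blocks GTTGCC matches and the purple bars GTTGCCNNG matches, which appear only in the windows of Bbs1 and Bbs7. The window of Bbs5 ends too soon after its GTTGCC match for GTTGCCNNG to be found there.

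The libraries held between 32251198 and 52308452 counts, of which the 10 members together took between 2802 and 5925 in sperm and between 7594 and 14022 in testes. The targeted gene Xap5l, listed as Fam50b, was counted 574, 440 and 419 times in WT and 18, 23 and 8 times in XAP5L KO libraries of sperm. Xap5, listed as Fam50a, was counted 819, 811 and 988 times in WT testes, and 673, 616 and 651 times after its deletion from germ cells. Each gene was also lower in the other comparison. Fam50b had 6, 0 and 7 counts in XAP5 cKO testes, against 532, 539 and 197 in WT. Fam50a had 296, 487 and 649 counts in XAP5L KO sperm, against 548, 705 and 689 in WT. WT replicate 3 of the testes had a mean correlation of 0.931 with the XAP5 cKO libraries, against 0.899 and 0.900 for the other WT libraries, and its 197 counts of Fam50b compared with 532 and 539. In sperm, replicate 1 of WT and of XAP5L KO had TMM scaling factors of 0.821 and 0.808, against factors above 1 in the other 4 libraries. Levels are given as CPM, counts scaled to the TMM-corrected library size. Testis and sperm tables were fitted apart, and no test was made between them.

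In XAP5L KO sperm, 1 of the 10 members rose and none fell. Bbs7, a propeller subunit of the BBSome core, was 2.14-fold higher than in WT sperm. The other 9 members had log2 fold changes between -0.43 (Ttc8) and 0.53 (Bbs5), and none of them passed the test. Calls required more than a 2-fold change together with a Benjamini-Hochberg adjusted p-value under 0.05, from edgeR's quasi-likelihood test over all 20945 genes tested. Over all those genes 7.59% were called higher and 1.27% lower, so that 1 of 10 is close to the background share. The median log2 fold change of the members was 0.14, against -0.08 over all genes tested, whose quartiles were -0.48 and 0.55.

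The WT sperm libraries held 342, 413 and 350 counts of Bbs7, compared with 706, 1437 and 769 in those of XAP5L KO, or 10.4, 9.82 and 7.55 CPM against 20.2, 25.9 and 13.2 CPM. The genotypes did not overlap, and replicate 2 of XAP5L KO was the highest. The means of WT and XAP5L KO were 9.25 ± 1.49 and 19.8 ± 6.38 CPM (SD, n = 3), with a log2 fold change of 1.10 (SE 0.271, 95% interval 0.49 to 1.70, edgeR adjusted p = 0.0332). The call was lost when any of 4 libraries was left out, as were most calls of the sperm table. The estimate was then 1.13 without WT replicate 2 (edgeR adjusted p = 0.115), 0.96 without WT replicate 3 (0.147), 1.08 without XAP5L KO replicate 1 (0.0812) and 0.85 without replicate 2 of that genotype (0.124). Over the whole table, the 1589 genes called higher became 1, 1, 483 and 1 in these subsets, in the same order. The call also failed with library size alone as the scaling (1.13, edgeR adjusted p = 0.0508), and under all 17 alternatives the estimate stayed between 0.85 and 1.40.

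The other core propeller genes were level between genotypes within their error. Bbs2 was at 17.5, 17.4 and 19.4 CPM in WT sperm, against 17, 21.1 and 19.8 CPM after loss of Xap5l (log2 fold change 0.09, 95% interval -0.33 to 0.51). Bbs9, the scaffold of the complex, was at 9.68, 6.44 and 7.38 CPM against 6, 6.83 and 7.26 CPM (-0.22, 95% interval -0.73 to 0.28). The groups overlapped for both genes. Bbs1, the propeller subunit that binds the recruiting GTPase ARL6, was at 6.61, 8.98 and 9.02 CPM against 9.34, 10.2 and 8.32 CPM (0.18, 95% interval -0.30 to 0.65).

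Bbs5, whose product binds membrane phosphoinositides, had the largest positive estimate after Bbs7. Its levels were 11.1, 10.1 and 8.46 CPM for WT against 13.3, 10.7 and 18.8 CPM for XAP5L KO, so the groups overlapped and replicate 3 of XAP5L KO stood highest (log2 fold change 0.53, 95% interval -0.02 to 1.09, edgeR adjusted p = 0.162). Ttc8, a subunit built of tetratricopeptide repeats and also known as Bbs8, was the only member whose XAP5L KO libraries all lay below the WT libraries. It was at 6.64, 7.11 and 7.96 CPM in WT, compared with 5.60, 5.51 and 4.98 CPM (-0.43, SE 0.204, 95% interval -0.89 to 0.02, edgeR adjusted p = 0.165), which did not pass the test. Over all genes tested 19.2% had non-overlapping groups in each direction, against 1 of 10 members higher (Bbs7) and 1 of 10 lower (Ttc8).

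Bbs4, the other tetratricopeptide subunit, and Bbip1, a small subunit that bridges Bbs4 and Ttc8 in the complex, had 95% intervals of -0.22 to 0.66 and -0.32 to 0.52. The estimates of the chaperonin-like genes rested on few reads. Counts of Bbs10 were 75, 110 and 103 for WT, compared with 69, 143 and 126 for XAP5L KO (log2 fold change -0.08, 95% interval -0.67 to 0.51). Bbs12 had 67, 94 and 59 counts against 59, 124 and 219, with the highest value in replicate 3 of XAP5L KO and the widest interval of the list (0.48, -0.34 to 1.3). For 7 of the 10 members the 95% interval lay inside a 2-fold difference in either direction, and for Bbs5, Bbs7 and Bbs12 it reached beyond.

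In XAP5 cKO testes, 2 of the 10 members fell and none rose. Bbs7 was 2.66-fold lower than in WT testes and Bbs1 2.21-fold lower. Without the fold change threshold, 7 members had an adjusted p-value under 0.05 and a negative estimate, namely Bbs1, Bbs2, Bbs5, Bbs7, Ttc8, Bbip1 and Bbs10. The remaining 3, Bbs4, Bbs9 and Bbs12, had log2 fold changes of -0.10, -0.19 and -0.42 and did not pass. Over all 16821 genes tested 10.9% were called lower and 4.15% higher, and without the fold change threshold 28.1% were lower and 25% higher. The members' median log2 fold change was -0.55, against -0.01 over all genes tested, whose quartiles were -0.49 and 0.45. In whole testes, fewer cells of a type and less RNA per cell cannot be told apart.

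Counts of Bbs7 were 1674, 1919 and 1362 for the WT testes, compared with 498, 554 and 689 for those of XAP5 cKO. On the CPM scale these were 49.8, 52.6 and 37.9 against 15.5, 16.3 and 20.9, and the groups did not overlap. WT replicate 3 was the lowest of the WT libraries and XAP5 cKO replicate 3 the highest of its group. The means were 46.8 ± 7.85 and 17.6 ± 2.94 CPM (SD, n = 3), with a log2 fold change of -1.41 (SE 0.161, 95% interval -1.78 to -1.05, edgeR adjusted p = 0.000114). Without WT replicate 3 the log2 fold change was -1.55 (edgeR adjusted p = 2.46e-05).

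Bbs1 was at 49.7, 49 and 41 CPM in WT testes, against 21.6, 20 and 21.6 CPM in those of XAP5 cKO. Its XAP5 cKO libraries lay close together and far below the lowest WT library. The means were 46.6 ± 4.87 and 21.0 ± 0.913 CPM (SD, n = 3), with a log2 fold change of -1.15 (SE 0.108, 95% interval -1.39 to -0.90, edgeR adjusted p = 4.64e-05). Without WT replicate 3 the estimate was -1.23 (edgeR adjusted p = 1.24e-05). The calls of Bbs1 and Bbs7 held under each of the 17 alternatives, with estimates of -1.23 to -1.10 for Bbs1 and -1.56 to -1.32 for Bbs7.

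**Figure D2:**
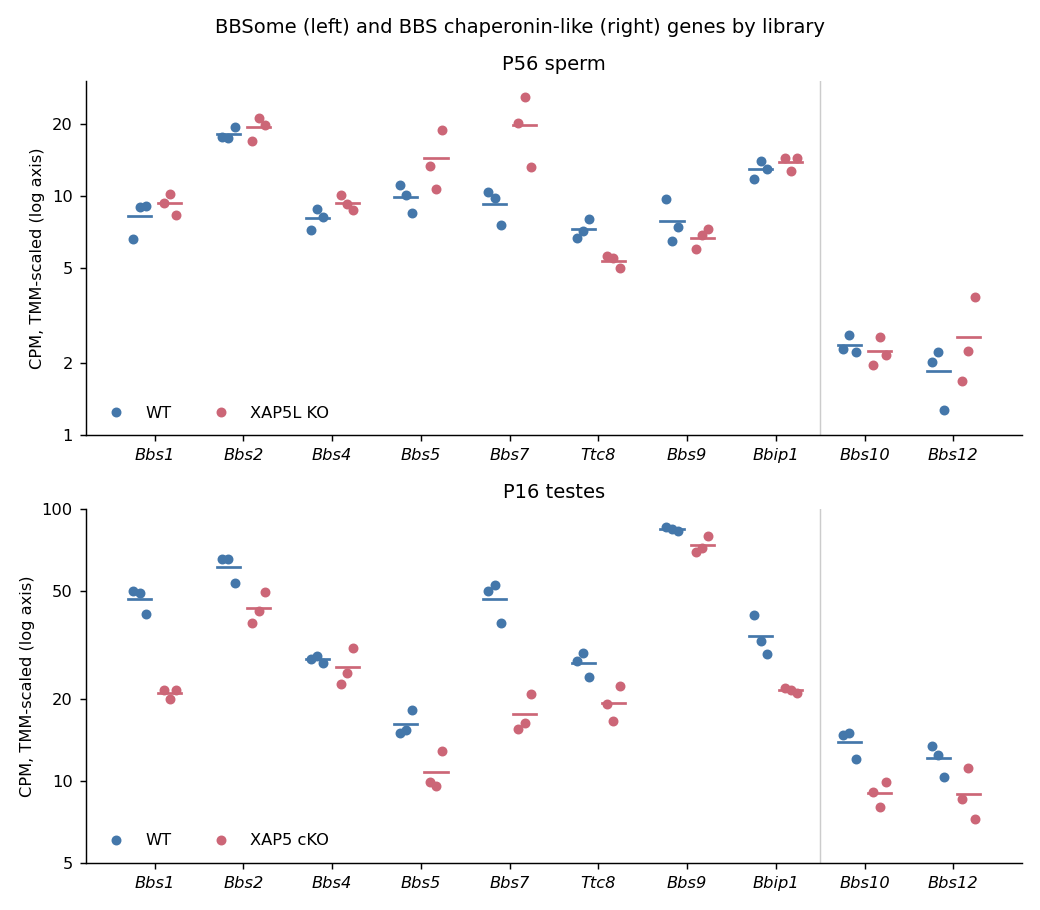
Level of each gene in each library, with sperm above and testes below, on a log axis of TMM-scaled CPM. Points are libraries (blue WT, red XAP5L KO or XAP5 cKO), lines are group means, and the grey line separates the BBSome subunits from Bbs10 and Bbs12. In sperm the red points of Bbs7 lie above the blue ones, and in testes those of Bbs1 and Bbs7 lie well below them.

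A middle set of 5 members passed the adjusted p-value but not the fold change threshold. Bbip1 was at 40.7, 32.6 and 29.3 CPM in WT and 21.9, 21.6 and 21.1 CPM in XAP5 cKO testes (log2 fold change -0.67, SE 0.133, edgeR adjusted p = 0.00256). Bbs2 was at 65.4, 65.2 and 53.2 CPM against 38.2, 42 and 49.4 CPM (-0.50, SE 0.122, edgeR adjusted p = 0.007). Bbs5 was at 15.0, 15.4 and 18.3 CPM against 9.92, 9.57 and 12.9 CPM (-0.59, SE 0.171, edgeR adjusted p = 0.0167). The groups did not overlap for any of these 3 genes.

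Ttc8, at 27.7, 29.4 and 24.1 CPM in WT and 19.2, 16.6 and 22.4 CPM in XAP5 cKO testes, had a log2 fold change of -0.48 (SE 0.143, edgeR adjusted p = 0.0185). Bbs10, whose protein belongs to the chaperonin-like group, differed by a similar amount, with 14.7, 15 and 12 CPM in WT against 9.11, 8.01 and 9.93 CPM (-0.62, SE 0.168, edgeR adjusted p = 0.012). Groups were again apart for both. With 1 library left out, the highest edgeR adjusted p-value was 0.0712 for Bbs5, 0.0792 for Ttc8, 0.0501 for Bbs10, 0.0346 for Bbs2 and 0.0118 for Bbip1, so the first 3 did not pass in every subset. Bbs5 did not pass without XAP5 cKO replicate 1 or 2 and Bbs10 without XAP5 cKO replicate 2. Ttc8 passed only when replicate 3 of either group was the one left out.

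Bbs9 differed little between genotypes. It was at 85.5, 84.1 and 82.5 CPM in WT and at 69.4, 71.6 and 79.6 CPM in XAP5 cKO testes, without overlap (log2 fold change -0.19, 95% interval -0.36 to -0.02, edgeR adjusted p = 0.0562). Bbs4 was at 28.0, 28.8 and 27.2 CPM against 22.7, 25 and 30.8 CPM, with XAP5 cKO replicate 3 above every WT library (-0.10, 95% interval -0.39 to 0.19, edgeR adjusted p = 0.556). Without XAP5 cKO replicate 1 its estimate was 0.00. The 95% intervals of Bbs4 and Bbs9 lay inside a 2-fold difference in either direction, whereas those of Bbs1 and Bbs7 reached beyond it.

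Bbs12 was at 13.4, 12.5 and 10.3 CPM in WT and at 8.55, 11.2 and 7.26 CPM in XAP5 cKO testes, where the groups overlapped through replicate 2 of XAP5 cKO (log2 fold change -0.42, 95% interval -0.89 to 0.04, edgeR adjusted p = 0.112). The testis table also held 2 numbered entries of this gene with fewer counts, Bbs12-2 with 47, 35 and 36 counts for WT against 28, 38 and 16 for XAP5 cKO, and Bbs12-3 with 45, 34 and 37 against 30, 37 and 16. Summing the entries changed no call. In all, the groups did not overlap in 8 of the 10 members, each lower in XAP5 cKO testes and none higher. Over all genes tested 32.4% were lower and 29.9% higher without overlap.

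**Figure D3:**
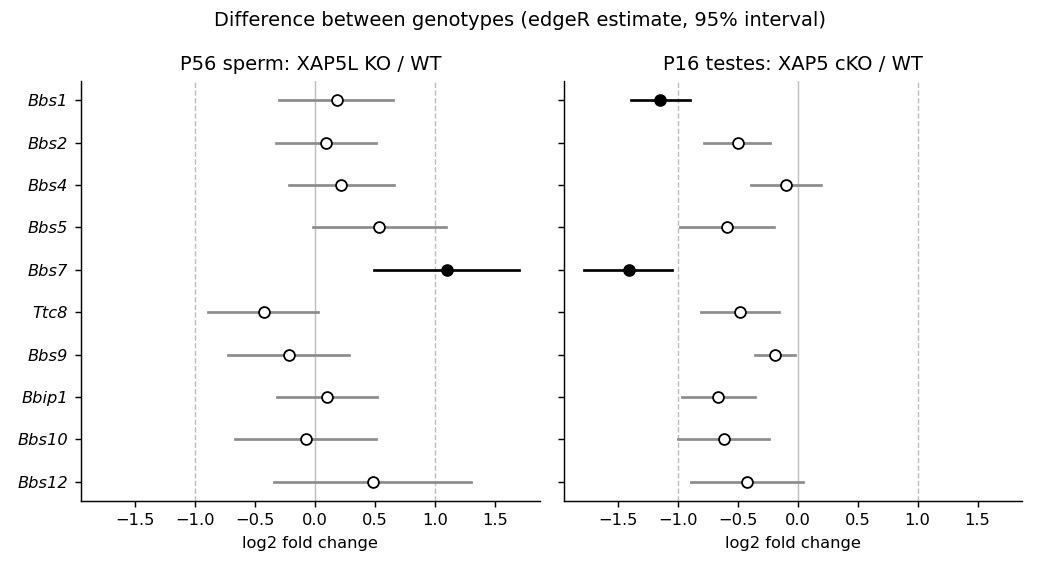
Log2 fold change of each gene with its 95% interval from edgeR, in XAP5L KO against WT sperm (left) and XAP5 cKO against WT testes (right). Filled points were called, and dashed lines mark a 2-fold difference. Bbs7 is filled on both sides, at 1.10 in sperm and -1.41 in testes, and Bbs1 is filled in testes at -1.15.

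Bbs7 was thus the member called in both comparisons, higher in XAP5L KO sperm and lower in XAP5 cKO testes. Its sperm call was lost when any of 4 libraries was left out. Over all genes tested 7.59% were called higher in sperm and 10.9% lower in testes. The share called in both is not given here, so this pattern has no background to be set against. The comparisons differ in the gene removed, the tissue and the age, which cannot be told apart, and the difference between the 2 estimates was not tested. Fam50b was also lower in XAP5 cKO testes (log2 fold change -6.48, edgeR adjusted p = 8.09e-05). Fam50a was also lower in XAP5L KO sperm (-0.76, edgeR adjusted p = 0.0393).

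Levels of different genes were compared per length, as CPM per kb of merged exons. In WT sperm, Bbs2 (5.47 CPM per kb) was the highest, followed by Bbs5 (4.04) and Bbip1 (2.93), and the library ranges of these 3 genes did not overlap. From Ttc8 (1.91) over Bbs7 (1.72), Bbs4 (1.33) and Bbs9 (1.25) down to Bbs1 (1.07), each gene overlapped with the next. Bbs10 (0.778) and Bbs12 (0.758) were at the bottom. In XAP5L KO sperm, Bbs5 (5.84) and Bbs2 (5.83) overlapped at the top, and Bbs7 (3.67) came next, overlapping with Bbip1 (3.13).

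In WT testes Bbs2 (18.5 CPM per kb) and Bbs9 (13.5) led the order, apart from each other and from the rest. Bbs7 (8.68) came next, and the other 7 ran from Bbip1 (7.77) to Bbs10 (4.55) with overlap between neighbours. In XAP5 cKO testes Bbs2 (13) and Bbs9 (11.8) overlapped at the top. Bbs7 (3.26) was eighth and Bbs1 (2.74) last, with overlap between neighbours from Ttc8 (5.12) downwards. The order depends on the length used. Per kb of the principal transcript, a choice made after the data were examined, Bbs9 led in testes with 24.0 in WT and 21.0 in XAP5 cKO, and Bbs5 led in WT sperm with 6.73.

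The make-up of the BBSome transcripts was described as each subunit's share of the sum of the 8 subunits per kb. The sum was 19.7, 20 and 19.5 CPM per kb in WT sperm, against 22.9, 23.8 and 24.4 for XAP5L KO. In testes it was 76.5, 75.6 and 66.7 in WT and 46.2, 47.1 and 55.4 in XAP5 cKO. The share of Bbs7 was 8.69% ± 1.33 in WT sperm, against 15.5% ± 5.12 after loss of Xap5l (SD, n = 3), while that of Ttc8 was 9.71% ± 0.988 and 5.99% ± 0.539.

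In testes the share of Bbs7 was 11.8% ± 1.21 in WT and 6.54% ± 0.412 in XAP5 cKO, and that of Bbs1 was 8.31% ± 0.261 and 5.56% ± 0.507 (SD, n = 3). The share of Bbs9 was 18.5% ± 1.14 in WT and 23.8% ± 0.699 in XAP5 cKO, and that of Bbs4 was 6.38% ± 0.357 and 8.71% ± 0.534. Library values did not overlap for any of these 4 subunits. Shares of a sum are bound to each other, and no test was made on them.

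The other genes of the pathway were taken from 4 lists of 35 distinct genes. In sperm 31 of them were tested and none was called in either direction. At an unadjusted p under 0.05 with a fold change above 2 the count was also 0 by edgeR, as was DESeq2's count of calls. Without the fold change threshold, 3 were higher in XAP5L KO sperm and 1 was lower, and these 4 are named after their values were seen. They were Cep290, a ciliary transition zone protein (15.6 to 30.0 CPM, log2 fold change 0.95, edgeR adjusted p = 0.0386), Ift172, an intraflagellar transport subunit (67.8 to 123 CPM, 0.86, 0.0353), Cct7, a CCT subunit (74.3 to 126 CPM, 0.76, 0.0373), and the lower Rab8a, a GTPase of ciliary membrane traffic (47.6 to 27.5 CPM, -0.79, 0.0314). Over all genes tested 9.02% passed that limit as higher and 3.07% as lower.

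Mkks, another chaperonin-like gene, was at 7.74, 9.89 and 10.1 CPM in WT sperm against 4.43, 6.01 and 5.97 CPM for XAP5L KO, without overlap (log2 fold change -0.75, edgeR adjusted p = 0.0556). Arl6, which encodes the GTPase that recruits the BBSome to membranes, overlapped between genotypes (-0.18, edgeR adjusted p = 0.582).

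In testes 33 of the 35 pathway genes were tested, of which 9 were called lower in XAP5 cKO and 1 higher. The higher one was the receptor gene Mchr1, with 10 to 17 counts in XAP5 cKO against 4, 0 and 3 in WT. The median log2 fold change of the pathway genes was -0.70, against -0.01 over all genes tested. Over all those genes 10.9% were called lower and 4.15% higher, and without the fold change threshold 28.1% were lower. Of the CCT and BBS chaperonin partners, 2 of 10 were called lower. They were Cct6b, the testis form of a CCT subunit (37.0, 33.0 and 13.4 CPM in WT against 1.62, 1.61 and 1.52, log2 fold change -4.13, edgeR adjusted p = 3.91e-05), and Tcp1, the alpha subunit of CCT (716 to 305 CPM, -1.23, edgeR adjusted p = 4.41e-05). Without the fold change threshold 9 of the 10 were lower. Mkks was the exception, at 26.6, 32.4 and 28.1 CPM in WT and 30.7, 29.8 and 29.8 CPM in XAP5 cKO testes (0.05, 95% interval -0.19 to 0.29).

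Of the 12 recruitment and regulation genes, 4 were called lower and none higher, against 10.9% and 4.15% of all genes tested. Cep290 was at 119 CPM in WT and 35.8 CPM in XAP5 cKO (log2 fold change -1.73, edgeR adjusted p = 1e-05), and Cep131, a centriolar satellite protein, at 36.3 and 14.8 CPM (-1.3, edgeR adjusted p = 9.38e-05). Ift27, an intraflagellar transport subunit that frees the BBSome for exit from cilia (-1.16, edgeR adjusted p = 0.00128), and Iqcb1, a transition zone protein (-1.04, edgeR adjusted p = 6.16e-05), completed the set. Iqcb1 was not called when WT replicate 1, WT replicate 2, XAP5 cKO replicate 1 or XAP5 cKO replicate 2 was left out. Arl6 had a log2 fold change of -0.53 (edgeR adjusted p = 0.00307), less than a 2-fold change, and Rab8a one of -0.04. Ccdc28b of that list was higher without the fold change threshold, at 49.5 against 33.5 CPM in WT (0.56, edgeR adjusted p = 0.000686).

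Of 12 other Bardet-Biedl syndrome genes, some of which are in the lists above, 5 were called lower, against 10.9% of all genes tested. Ift172 had the largest difference, from 139 to 29.1 CPM (log2 fold change -2.26, edgeR adjusted p = 1.85e-05), followed by Cep290, Wdpcp (-1.41), Ift27 and Scaper (-1.10). Trim32, a ubiquitin ligase, was higher without the fold change threshold (0.69, edgeR adjusted p = 3.18e-05).

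Markers of testis cell types moved with genotype in both tables. In P16 XAP5 cKO testes, the summed level of 8 pachytene spermatocyte markers was 208 to 299 CPM, against 1170 to 2260 CPM in WT, and 7 of the 8 were called lower. WT replicate 3 had the lowest of the WT sums. Hspa2 went from 556 to 132 CPM, and Adam3 was at 0 in every XAP5 cKO library. The sum of 8 leptotene and zygotene markers was 825 to 1120 CPM against 1680 to 1950 CPM, with 6 called lower and Sycp1 at 313 against 734 CPM. Spermatogonial markers summed to 518 to 555 CPM against 773 to 866 CPM, with 2 of 8 called lower. Gfra1 of that list went the other way, at 14.5, 10.7 and 16.5 CPM against 9.11, 9.3 and 9.92 CPM in WT. Its log2 fold change was 0.56 (edgeR adjusted p = 0.0321), below the fold change threshold.

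The summed levels of testicular somatic and leukocyte markers were higher in XAP5 cKO testes. Sertoli markers summed to 1880 to 1960 CPM in XAP5 cKO and 1090 to 1190 CPM in WT testes, with 1 of 8 called higher, and Leydig markers to 389 to 737 CPM against 193 to 336 CPM, with 3 of 6 called higher. Leukocyte markers summed to 158 to 211 CPM against 74.1 to 107 CPM, with 5 of the 7 tested called higher, and myoid markers to 741 to 808 CPM against 513 to 668 CPM with none of 6 called. Of the 8 round spermatid markers only 3 were tested at this age. Sun5 and Tex36, at 0 in XAP5 cKO testes, had too few counts over both groups to be tested. Of the 8 elongating spermatid markers 1 was tested (summed level 4.7 to 5.84 CPM against 4.8 to 5.45 CPM, with Prm2 and Smcp at 0 in both groups). The round spermatid sum was 10.3 to 12.1 CPM against 18 to 35.5 CPM, with 1, Acr, called lower (0.112 against 20.5 CPM). Spaca1 of that list had a positive estimate, at 10.3 against 7.59 CPM (log2 fold change 0.44, edgeR adjusted p = 0.131). Tssk1, the other one tested, had a negative estimate (-1.34, edgeR adjusted p = 0.0802). Epididymal markers summed to 45.6 to 54.0 CPM against 60.1 to 73.7 CPM, with Lcn5, Lcn8 and Crisp1 at 0 in both groups. Of the 3 tested, 1, Aqp9, was called lower (0.117 against 10.6 CPM). Epcam, at 43.6 against 55.4 CPM, was below the fold change threshold. Cst8 went the other way, at 5.69 against 2.94 CPM (log2 fold change 0.95, edgeR adjusted p = 0.0146), also below that threshold. The part of these differences in the lower Bbs1 and Bbs7 was not tested.

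**Figure D4:**
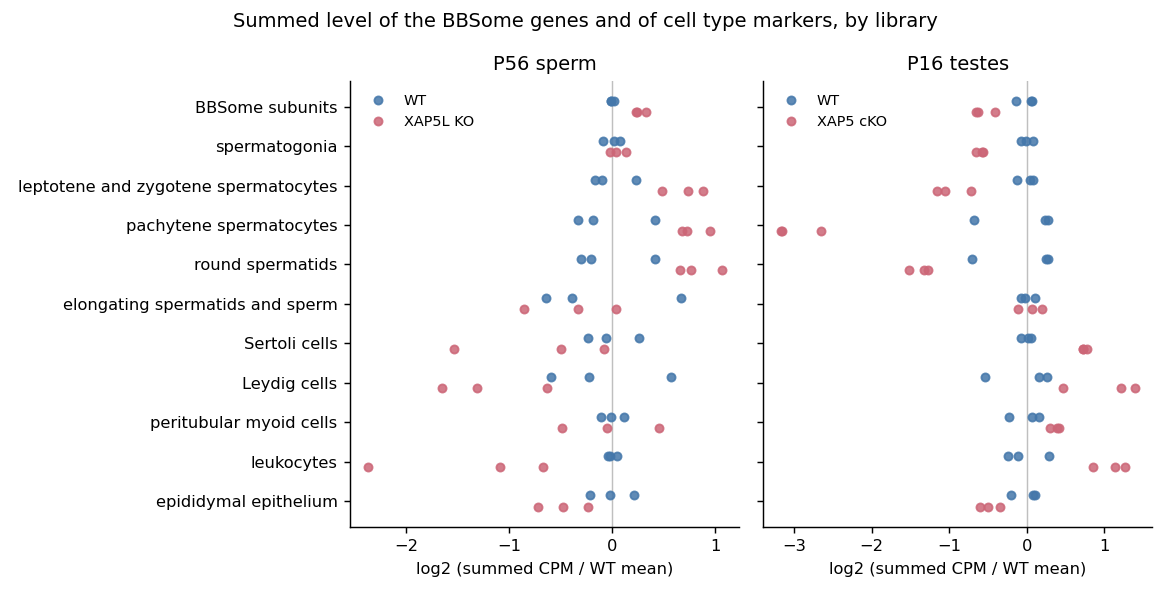
Summed CPM of the 8 BBSome subunits and of the marker list of each cell type, per library, as log2 of the ratio to the WT mean, for sperm (left) and testes (right). Blue points are WT and red points XAP5L KO or XAP5 cKO libraries. In testes the pachytene sums of XAP5 cKO lie lowest, the BBSome sums lie below WT, and the Sertoli, Leydig and leukocyte sums lie above it.

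In XAP5L KO sperm, the round spermatid markers summed to 949 to 1250 CPM against 485 to 794 CPM in WT, with 7 of 8 called higher. The pachytene markers summed to 2820 to 3400 CPM against 1410 to 2340 CPM, with 4 of 8 called higher. Piwil1 alone of the pachytene list had a negative estimate, at 7.76 against 15.2 CPM (log2 fold change -0.97, edgeR adjusted p = 0.104). Leptotene and zygotene markers summed to 56.4 to 74.2 CPM against 35.9 to 47.4 CPM, with 1 of 8, Rec8, called higher (43.3 against 19.4 CPM). The median log2 fold change of that list was -0.07, and 5 of its 8 estimates were negative. The defining transcripts of the labelled sperm were abundant in both groups. The elongating spermatid and sperm markers summed to 44900 to 83900 CPM for XAP5L KO and 52400 to 130000 CPM in WT, with 1 of 8, Akap4, called higher. Members of that list differed in direction, with negative estimates for Smcp (24800 against 48700 CPM) and Odf1 (11100 against 18000 CPM) and positive ones for the other 6, among them Prm2 (19800 against 10200 CPM), and its median log2 fold change was 0.60.

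RNA of other cells was also present in the sperm libraries. Epididymal epithelium markers summed to 4250 to 5940 CPM in XAP5L KO and 6000 to 8120 CPM in WT, with Crisp1 at 4580 against 6200 CPM. Leukocyte markers summed to 145 to 472 CPM against 733 to 779 CPM, with Lyz2 at 213 against 566 CPM. Of those 8 markers, 1, Fcer1g, was called lower. Cst8 of the epididymal list and S100a8 of the leukocyte list had positive estimates (log2 fold changes 0.19 and 0.48), and neither was called. Sertoli markers summed to 6.42 to 17.6 CPM against 15.8 to 22.2 CPM, with overlap. Of the 6 tested, 1, Cldn11, was called lower (0.742 against 2.13 CPM). Leydig markers summed to 7.24 to 14.7 CPM against 15.1 to 33.6 CPM, with none of the 4 tested called. Spermatogonial sums also overlapped, at 26.0 to 28.7 CPM against 24.7 to 27.5 CPM, as did myoid sums, at 6.71 to 12.9 CPM against 8.76 to 10.2 CPM. Fshr of the Sertoli list (4, 4 and 0 counts in WT) and Lhcgr of the Leydig list (0, 4 and 0 counts in WT) were at 0 in XAP5L KO sperm, where both genotypes lie about the floor of 3 counts. The part of these differences in the higher Bbs7 was not tested.

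On GRCm38, the called members are Bbs7 on chromosome 3, from 36573142 to 36613477, and Bbs1 on chromosome 19, from 4886878 to 4906628, both on the minus strand. Exons of Bbs1, Bbs2, Bbs5, Bbs7, Ttc8, Bbs9 and Bbs10 overlapped with no other gene in the GENCODE annotation of GRCm38. The exons of Bbs4 shared 194 bases (3.21%) with the opposite-strand Adpgk, those of Bbip1 97 bases (2.20%) with the opposite-strand Shoc2, and those of Bbs12 32 bases (1.31%) with Cetn4 and Gm43439. The use of strand in counting is not given in the sources used here, so reads in these bases could not be assigned.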

How the data were processed

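Poly(A) RNA of 12 libraries was sequenced by the authors as paired-end reads and mapped to GRCm38/mm10 with HISAT2. The deposited values are unnormalized counts, whole numbers for each gene, in 1 table for sperm and 1 for testes. The submitters' processing notes name FastQC 0.11.2, Trimmomatic 0.36, HISAT2 2.1.0 and DESeq2 1.12.4. The counting tool, its strand setting and its treatment of multi-mapping reads are not given in the sources used here, and interval and test values rest on counts without molecular identifiers. The design names 3 biological replicates per genotype, and groups came from the labels.

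Each table was fitted whole with edgeR 4.0.16 in R 4.3.3 (filterByExpr, TMM, quasi-likelihood test, genotype as the only term, Benjamini-Hochberg adjustment over all genes tested). Calls required an adjusted p-value under 0.05 with more than a 2-fold change. CPM were computed with the TMM-scaled library sizes, errors are SD of 3 libraries or SE of the log2 fold change, and intervals are at 95%. edgeR's common coefficient of biological variation came to 0.287 (sperm) and 0.174 (testes). No exact permutation test was run, since 3 libraries per group allow no two-sided p under 0.1. The fit was tested on simulated data. No replicate pair agreed within sampling noise.

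The members, the pathway and marker lists and the motifs were chosen with earlier results of these data known. Named were every member, Mkks, Arl6, up to 4 called genes of each pathway list by absolute log2 fold change, the gene of each marker list with the highest CPM in WT and the targeted genes. Scaper, Trim32, Ccdc28b and the genes marked in the text were named after their values were seen. So were markers named for being at 0 or about the floor, and other markers beside the one with the highest CPM. Alternatives were no filter, at least 10 counts in every library, RLE size factors, library size alone, DESeq2 1.42.0, a replicate block, no fold change threshold, an adjusted p under 0.01, an unadjusted p under 0.05 and leaving out each library. Summing the entries of a gene, leaving out mitochondrial and the 10 most abundant other genes, and principal transcript length were added after the data were examined. Positions and exon lengths came from GENCODE and promoters from RefSeq. Figures were drawn with matplotlib 3.10.9.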

Additional observations from a re-analysis of the deposited data

How the results depend on the processing

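The testis calls of Bbs1 and Bbs7 were lower under every alternative run, and the sperm call of Bbs7 was not made under several. The count of members called higher in sperm was 0 with library size alone and 0 at an adjusted p under 0.01, and it ranged from 0 to 1 when 1 library was left out. At an adjusted p under 0.01 edgeR called 0 of all 20945 sperm genes, the lowest adjusted p being 0.0118, so the 0 there says nothing about the members (2385 genes were called higher and 605 lower at an unadjusted p under 0.05 with the same fold change, and DESeq2 called 2125 and 350). Genes called higher over the whole sperm table numbered 1545 with library size alone and between 1 and 2402 when 1 library was left out. The count of members called lower in testes was 7 without the fold change threshold. Estimates near 0 changed sign in 2 cases, namely Bbs10 in sperm, at 0.02 without XAP5L KO replicate 3 (range over omitted libraries -0.20 to 0.02), and Bbs4 in testes, at 0.00 without XAP5 cKO replicate 1 (range -0.23 to 0.00). Over the members, the median ranged from 0.04 to 0.20 in sperm and from -0.63 to -0.50 in testes when 1 library was left out, and without the filter the median over all sperm genes was 0.13.

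Pathway genes called higher in sperm numbered 2 without the filter, 3 without the fold change threshold, 1 without mitochondrial and the most abundant genes, and 0 to 3 when 1 library was left out (3 without WT replicate 1, and 1, Cep290, without XAP5L KO replicate 3). Those lower in sperm numbered 1 without the fold change threshold. In testes the single pathway gene called higher, Mchr1, was not called without the filter, with at least 10 counts in every library, with DESeq2, with the replicate block or at an adjusted p under 0.01 (0 genes in each). The count was 4 without the fold change threshold and ranged from 0 to 1 when 1 library was left out, where the 1 was Smo. Lower pathway genes in testes numbered 25 without the fold change threshold. The cause of these changes was not tested.

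With the replicate number as a block, 1 member was called higher in sperm (Bbs7, 1.06, edgeR adjusted p = 0.0412) and 2 lower in testes (Bbs7 at -1.41, Bbs1 at -1.14), and no member's call changed. Deviations of same-numbered libraries correlated at 0.149, -0.0229 and -0.0809 in sperm and at 0.0125, -0.0141 and -0.00805 in testes, so the numbers were not taken as pairs. Bbs10 and Bbs12 had only 59 to 219 counts in each sperm library.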

Other observations

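Few receptors that the BBSome carries in cilia were measurable. Of 6 such genes, 2 passed the filter in sperm and 4 in testes. In sperm, Smo, the Hedgehog signal transducer, was at 6.87 CPM in WT against 4.44 CPM (log2 fold change -0.63, edgeR adjusted p = 0.0866), and Mchr1, the melanin-concentrating hormone receptor, had 42, 70 and 85 counts against 53, 110 and 40.

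In testes, Smo was at 46.4 CPM in WT and 89.5 CPM in XAP5 cKO (0.95, edgeR adjusted p = 0.000131), below the fold change threshold. Gpr161, an orphan receptor that restrains Hedgehog signalling, was at 7.60 and 4.77 CPM (-0.67, edgeR adjusted p = 0.0325). Mchr1 was called higher, but with 4, 0 and 3 counts for WT against 17, 10 and 14 for XAP5 cKO, near the floor of 3 counts. Smo and Gpr161 are named after their values were seen.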
